A study of Rattus norvegicus with 16 samples.

Results

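Transcripts of 10 genes of the platelet-derived growth factor (PDGF) and epidermal growth factor (EGF) families were followed in a pair of rat kidney cell lines kept in indirect co-culture. The genes were taken by name as ligands and receptors through which the lines could signal to each other, and were Pdgfa, Pdgfb, Pdgfc, Pdgfd, Pdgfra, Pdgfrb, Egfr, Hbegf, Areg and Ereg, or 10 of the 32623 genes in the count table. All 10 were in the table, and 22082 of its genes were seen at least once over the 16 libraries. The study asked how acidic medium alters gene expression in tubule-derived epithelial cells and fibroblasts that share a medium. NRK-52E is an established rat kidney epithelial line, often used to model proximal tubule cells. NRK-49F is an established fibroblast line of the same organ. NRK-52E cells grew on permeable filter inserts hung above NRK-49F cells growing in the wells of a plate, so cell line and growth surface cannot be told apart. After 24 h without serum the co-cultures received medium of pH 7.4 (control) or pH 6.0 (acidic) for 48 h, and polyadenylated RNA of each line was sequenced.

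This gave 4 groups of 4 libraries: NRK-52E at pH 7.4 (replicates 1, 2, 5 and 6), NRK-52E at pH 6.0 (replicates 3, 4, 7 and 8), NRK-49F at pH 7.4 (replicates 9, 10, 13 and 14) and NRK-49F at pH 6.0 (replicates 11, 12, 15 and 16). Library totals ran from 16201084 to 34784862 counts with a median of 20790017.5, and the highest totals were those of NRK-49F replicates 15 and 16 at pH 6.0. The library names carry a second number whose meaning the sources do not give: 21 for NRK-52E replicates 1 to 4, 22 for replicates 5 to 8, 20 for NRK-49F replicates 9 to 12 and 21 for replicates 13 to 16. Each number holds libraries of both media, so effects of the medium were also computed within each number. Nothing in the labels says that replicates came from separate cultures, so p-values measure only the spread between these libraries, which may be technical. For pairs of libraries of a group, the chi-square of gene counts divided by its degrees of freedom was 6.12 to 92.2, where counting noise alone gives about 1, so no pair matched within counting noise. In NRK-52E at pH 6.0 the pairs with replicate 8 gave 43.7, 92.2 and 71.5 and the others 9.11 to 39.4; without replicate 8, 5 members (Pdgfa, Pdgfb, Pdgfc, Pdgfrb and Areg) still differed between the media in NRK-52E, at an adjusted p under 0.01 in both edgeR and DESeq2. Levels are given in FPM, counts per 1000000 counts of a library after scaling between libraries, and compared for each gene across libraries only, because no gene lengths were used; sums over a marker list and its gene of highest FPM describe counts, which also grow with gene length.

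PDGF chains pair into dimers that bring together and activate receptor tyrosine kinases. The A, B and C chains bind PDGF receptor alpha, and the B and D chains bind PDGF receptor beta; in the kidney these receptors sit mainly on mesangial cells, pericytes and fibroblasts, where they drive proliferation, migration and scarring. Amphiregulin (Areg), epiregulin (Ereg) and heparin-binding EGF-like growth factor (Hbegf) are made as membrane-anchored precursors that proteases release, and they activate the EGF receptor (Egfr), which takes part in the repair of the tubule and, when its activity persists, in fibrosis. The measurements are of transcripts, and neither protein nor release of ligand was measured in these libraries.

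The labels were checked against marker genes. Among 12 epithelial markers, NRK-52E at pH 7.4 had Krt8 at 430.4 FPM, Ocln at 41.2 FPM and Krt7 at 36.7 FPM, whereas Cdh1 was at 1.62 FPM, Epcam at 0.022 FPM and Esrp1 at 0 in every library. The summed level of the 12 epithelial markers ran from 488 to 561 FPM in NRK-52E at pH 7.4 and from 361 to 430.4 FPM at pH 6.0. In NRK-49F the sums were 787 to 952 FPM and 201 to 221 FPM, and Krt8 had the highest FPM there. Of 6 tested in NRK-52E, 1 was higher at pH 6.0 (Tjp3) and 5 were lower (Ocln, Krt7, Krt8, Krt19 and Cdh1). Their median log2 change was -1.44, and of all genes tested in NRK-52E 28.2% were called higher and 28.5% lower. In NRK-49F, 2 of 4 were lower (Krt8 and Cldn1) and 0 higher, beside 19.4% and 18.4% of all genes tested. Of 9 proximal tubule markers, Slc34a1 and Hnf4a were at 0 in all NRK-52E libraries and Aqp1 had the highest FPM, at 34.4 FPM in control medium against 26.4 FPM in acidic medium, a change that missed the threshold. Anpep fell from 28.5 to 1.25 FPM (log2 change -4.55 ± 0.19) and Slc5a2 fell from 0.813 to 0.0654 FPM. The 9 summed to between 56.3 and 74.9 FPM in NRK-52E at pH 7.4 and between 25.0 and 36.4 FPM at pH 6.0. These sums were below the 142 to 195 FPM and 364 to 560.5 FPM of NRK-49F, where Ggt1 had the highest FPM. In NRK-49F, 1 of 5 tested was higher at pH 6.0 (Ggt1, 112 to 413 FPM) and 2 were lower. Of all genes tested there, 18.4% were called higher and 19.4% lower. Anpep fell in NRK-49F from 30.1 to 10.9 FPM and Slc5a2 from 0.978 to 0.105 FPM. NRK-52E therefore carried some epithelial transcripts but lacked defining markers of the proximal tubule, and it held Col3a1, a fibroblast collagen, at 6221 FPM in control and 2630 FPM in acidic medium.

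Among 12 fibroblast markers, NRK-49F at pH 7.4 had Col1a1 at 6205 FPM, Twist1 at 94.7 FPM and Prrx1 at 64.9 FPM, but Dcn at 0.470 FPM, Fap at 0.080 FPM and Thy1 at 0 in every library. Col3a1 was at 458 FPM there, and was called higher in NRK-52E. Krt8 was also high in NRK-49F, at 848 FPM in control and 206 FPM in acidic medium, while Ocln was at 0 and 0.099 FPM. In NRK-52E at pH 7.4, Prrx1 was at 0.010 FPM, Twist1 at 1.41 FPM and Twist2 at 3.11 FPM, while Col1a1 was at 23.6 FPM, Postn at 45.0 FPM, Fbln1 at 78.5 FPM and Col5a1 at 369 FPM. The 12 fibroblast markers summed to between 6575 and 6851 FPM in NRK-52E at pH 7.4 and between 2075 and 3516 FPM at pH 6.0, against 6687 to 8011 FPM and 7768 to 9772 FPM in NRK-49F. The NRK-49F sums consist mostly of Col1a1, at 8288 FPM in acidic medium, a change that missed the threshold. Of 9 tested in NRK-49F, 1 was higher (Fbln1) and 2 were lower at pH 6.0 (2 and 2 with library totals). The median log2 change was -0.34, and of all genes tested there 18.4% were called higher and 19.4% lower. Col3a1 fell to 53.9 FPM and Lum fell from 8.27 to 1.92 FPM in NRK-49F. In NRK-52E, 1 of 8 tested fibroblast markers was higher and 5 were lower (0 and 6 with library totals), with a median of -0.87. Of all genes tested in that line, 28.2% were called higher and 28.5% lower. The 6 pericyte and smooth muscle markers summed to between 199 and 269.6 FPM in NRK-52E at pH 7.4, with Acta2 highest at 195 FPM, and to between 117 and 203 FPM at pH 6.0; in NRK-49F the sums were 17.6 to 24.4 FPM and 30.0 to 34.3 FPM. Of 5 endothelial markers, 4 were in the table, and Tek had the highest FPM in NRK-52E, 41.1 FPM in control and 7.02 FPM in acidic medium, with Kdr and Emcn at 0. Of 5 immune cell markers, Cd68 had the highest FPM in NRK-49F, 81.2 FPM in control and 243 FPM in acidic medium, with Ptprc at 0 in all libraries. Their part in the results for the members was not tested.

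In NRK-52E, acidic medium went with more Pdgfa and with less Pdgfb, Pdgfc, Pdgfrb and Areg. In such bulk libraries, fewer cells carrying a transcript and less of it per cell cannot be told apart. Of the 8 members tested, 1 was higher and 4 were lower at pH 6.0 when edgeR and DESeq2 each had to give an adjusted p (FDR) under 0.01, against 28.2% higher and 28.5% lower of the 13735 genes tested. In NRK-49F, Pdgfa and Areg were higher and Pdgfc and Pdgfrb lower, 2 and 2 of 7 members tested, against 18.4% and 19.4% of 13339 genes. The median log2 fold change of the members tested was -0.54 in NRK-52E beside 0.0014 over all genes, and -0.00046 in NRK-49F beside -0.0029. Members below edgeR's minimum count were Pdgfd and Pdgfra in NRK-52E, and Pdgfb, Pdgfd and Ereg in NRK-49F. With 8 and 7 genes tested, these counts are a description and set the members apart from no other genes.

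Pdgfa, which encodes the A chain, rose in both lines. In NRK-52E it stood at 57.95, 60.22, 56.50 and 57.17 FPM at pH 7.4 (replicates 1, 2, 5 and 6) and at 112.2, 99.25, 99.02 and 92.38 FPM at pH 6.0 (replicates 3, 4, 7 and 8). Every acidic library lay above every control library, and the control libraries lay close together. The rise was 0.78 ± 0.09 on the log2 scale (SE, n = 4 and 4), a 1.71-fold change, with an adjusted p of 1.74e-05 (edgeR quasi-likelihood test, Benjamini-Hochberg). In NRK-49F, Pdgfa stood at 31.61, 31.43, 29.50 and 32.10 FPM at pH 7.4 (replicates 9, 10, 13 and 14) and at 63.62, 57.04, 58.45 and 42.66 FPM at pH 6.0 (replicates 11, 12, 15 and 16). The groups did not overlap here either, and replicate 16 was the lowest of the acidic libraries. The change was 0.82 ± 0.12 (edgeR adjusted p = 0.000158), 0.94 among libraries numbered 20 and 0.69 among those numbered 21, where the adjusted p was 0.0271. NRK-52E gave 0.80 for number 21 and 0.73 for number 22, the latter with an adjusted p of 0.01002.

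For groups of 4 and 4 that do not overlap, the exact two-sided permutation test gave p = 0.0286, the smallest that its 70 splits allow. This was its result for Pdgfa in both lines and for each member called for the medium below. Pdgfa was 1.97-fold higher in NRK-52E than in NRK-49F at pH 7.4 (log2 0.98 ± 0.07) and 1.80-fold higher at pH 6.0 (0.85 ± 0.13). Its pH effects in the lines differed by -0.050 (95% interval -0.37 to 0.27), and the test of that difference missed the threshold (edgeR adjusted p = 0.819).

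Pdgfb encodes the B chain, a ligand of both receptors. Levels in NRK-52E were 35.28, 32.04, 35.44 and 33.65 FPM at pH 7.4, and 23.24, 19.10, 18.40 and 24.07 FPM at pH 6.0. Acidic libraries were all below control libraries, and the fall was -0.70 ± 0.13 on the log2 scale (edgeR adjusted p = 0.000537). The change for number 21 was -0.71 (adjusted p = 0.0107) and that for number 22 was -0.72 (adjusted p = 0.0403), so the size was alike and neither passed with 2 and 2 libraries. When all 16 libraries shared 1 fit the fall was -0.72 and was not called (edgeR adjusted p = 0.0171). NRK-49F had 0 to 8 counts of Pdgfb per library, a sum of 13 at pH 7.4 and 9 at pH 6.0. The pooled level was 0.167 FPM (95% exact Poisson interval 0.0890 to 0.286) at pH 7.4 and 0.0896 FPM (0.0410 to 0.170) at pH 6.0, or 0.490% and 0.423% of the mean level in NRK-52E; such intervals cover counting error only. Pdgfb was thus nearly confined to NRK-52E in these libraries, and a pH effect in NRK-49F was not detectable at this depth.

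Pdgfc encodes the C chain, which is secreted with a CUB domain that plasmin or tissue plasminogen activator removes. NRK-52E had 80.86, 79.73, 78.10 and 79.82 FPM at pH 7.4, and 28.50, 39.92, 35.86 and 54.40 FPM at pH 6.0. All acidic libraries were below the narrow control range, with replicate 8 the highest of them. The fall was -1.02 ± 0.17 on the log2 scale, 2.03-fold (edgeR adjusted p = 0.000288), at -1.27 within number 21 and -0.82 within number 22 (adjusted p = 0.0343). In NRK-49F it stood at 243, 225, 218 and 201 FPM at pH 7.4 and at 184, 173, 137 and 167 FPM at pH 6.0. Acidic libraries again lay below control libraries, by a smaller step of -0.44 ± 0.11 (edgeR adjusted p = 0.00526). That call was lost without replicate 9, 10, 15 or 16, with adjusted p-values of 0.0187, 0.0163, 0.0172 and 0.0103 in that order. It was also lost with library totals as scaling (edgeR adjusted p = 0.0119) and when all 16 libraries shared 1 fit (0.0145). Within number 20 the change was -0.39 and was called. Within number 21 it was -0.48 and was not called (edgeR adjusted p = 0.0638).

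Pdgfc was 2.63-fold higher in NRK-49F than in NRK-52E at pH 7.4 (log2 -1.40 ± 0.07 for NRK-52E against NRK-49F) and 4.20-fold higher at pH 6.0 (-2.07 ± 0.18). The pH effects of the lines differed by -0.59 (95% interval -1.01 to -0.18), which missed the threshold of 0.01 (edgeR adjusted p = 0.0189). Without replicate 8 this difference was called (edgeR adjusted p = 0.000300).

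Pdgfd, which encodes the D chain, had no count in any of the 8 NRK-52E libraries and at most 2 counts in an NRK-49F library. Summed over each NRK-52E group, a count of 0 allows up to 0.0330 FPM at pH 7.4 and 0.0356 FPM at pH 6.0, taking 3 counts over the group as the limit. NRK-49F had a sum of 3 counts at pH 7.4 and 1 at pH 6.0. No fold change is given, since all groups were at or under that limit.

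Pdgfra encodes receptor alpha and marked NRK-49F. In that line it stood at 430.2 and 447 FPM (replicates 9 and 10) and 351 and 339 FPM (replicates 13 and 14) at pH 7.4. At pH 6.0 it stood at 222 and 267 FPM (replicates 11 and 12) and 418 and 564 FPM (replicates 15 and 16). The acidic libraries numbered 20 were below their controls and those numbered 21 were above theirs, so the pooled groups overlapped. The pooled change was -0.11 (95% interval -0.62 to 0.40, edgeR adjusted p = 0.713), while within number 20 it was -0.84 ± 0.11 (adjusted p = 9.97e-05) and within number 21 it was 0.49 ± 0.20 (adjusted p = 0.0901).

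The difference between those Pdgfra effects was 1.31 ± 0.23 on the log2 scale, in a test added after the values were seen. It passed in DESeq2 (adjusted p = 3.13e-05) and did not in edgeR (adjusted p = 0.199), so it was not called. In NRK-52E, Pdgfra had 4 to 10 counts per library at pH 7.4 and 0 to 3 at pH 6.0. The pooled level of 0.286 FPM (95% exact Poisson interval 0.187 to 0.419) at pH 7.4 was 0.0730% of the mean in NRK-49F, and the 0.0475 FPM (0.0129 to 0.122) at pH 6.0 was 0.0129%. The fall from 26 to 4 summed counts was below edgeR's minimum, and DESeq2 gave an adjusted p of 0.0398 with an exact two-sided permutation p of 0.0571.

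Pdgfrb encodes receptor beta and fell in both lines. In NRK-52E it stood at 47.55, 52.28, 45.23 and 40.60 FPM at pH 7.4 and at 18.23, 15.87, 12.17 and 18.99 FPM at pH 6.0. In NRK-49F it stood at 88.60, 84.39, 83.68 and 92.15 FPM at pH 7.4 and at 16.07, 14.59, 22.78 and 33.59 FPM at pH 6.0. Acidic and control libraries were far apart in each line, and among the acidic NRK-49F libraries those numbered 21 were the higher pair. The fall was -1.53 ± 0.16 in NRK-52E (2.88-fold, edgeR adjusted p = 9.80e-06) and -2.01 ± 0.21 in NRK-49F (4.02-fold, 9.67e-06). Within the numbers it was -1.59 and -1.48 in NRK-52E and -2.49 and -1.66 in NRK-49F. Pdgfrb was the 1 member called for the medium within every number. Of all genes, 5244 were called within number 21 and 2820 within number 22 in NRK-52E. In NRK-49F, 4680 were called within number 20 and 1980 within number 21. How many genes were called within every number was not counted. Of the pericyte and smooth muscle markers, Cspg4 fell by 3.41 and Rgs5 fell by 2.60 in NRK-52E while Des rose by 4.97 and Myh11 by 1.36, and in NRK-49F Acta2 fell by 2.38 while Notch3 rose by 2.03, Des by 1.44 and Myh11 by 0.77. Their part in the fall of Pdgfrb was not tested.

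At pH 7.4 Pdgfrb was 1.77-fold higher in NRK-49F (log2 -0.83 ± 0.09 for NRK-52E against NRK-49F, edgeR adjusted p = 3.77e-06). At pH 6.0 the groups overlapped and the difference was -0.44 (95% interval -0.99 to 0.12, edgeR adjusted p = 0.143). The pH effects of the lines differed by 0.47 (95% interval -0.12 to 1.05, edgeR adjusted p = 0.173), and without replicate 16 this difference was called (adjusted p = 0.00917).

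Areg, which encodes amphiregulin, moved in opposite directions in the lines. In NRK-52E it stood at 4.92, 3.85, 3.86 and 4.522 FPM at pH 7.4, from 93 to 105 counts, and at 1.04, 0.764, 0.369 and 1.69 FPM at pH 6.0, from 9 to 36 counts. In NRK-49F it stood at 8.06, 8.995, 9.61 and 9.92 FPM at pH 7.4 and at 22.4, 16.9, 11.9 and 13.01 FPM at pH 6.0. No library of the acidic groups overlapped its control group, below it in NRK-52E and above it in NRK-49F. The change was -2.17 ± 0.37 in NRK-52E (4.50-fold lower, edgeR adjusted p = 0.000363) and 0.80 ± 0.20 in NRK-49F (1.74-fold higher, 0.00550). The difference between them was -2.99 ± 0.41 (edgeR adjusted p = 1.09e-05), which passed in both tools.

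The fall of Areg in NRK-52E was -2.33 within number 21 and -2.05 within number 22 (adjusted p = 0.0496). The rise in NRK-49F was 1.21 within number 20 and 0.33 within number 21 (adjusted p = 0.324), and its call was lost without replicate 9, 10, 11, 12 or 14 (adjusted p-values 0.0194, 0.0147, 0.0154, 0.0154 and 0.0124) and when all 16 libraries shared 1 fit (edgeR adjusted p = 0.0168). The rise in NRK-49F was thus less firmly measured than the fall in NRK-52E. Areg was 2.02-fold higher in NRK-49F than in NRK-52E at pH 7.4 (log2 -1.01 ± 0.14 for NRK-52E against NRK-49F) and 16.9-fold higher at pH 6.0 (-4.08 ± 0.39).

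Hbegf encodes heparin-binding EGF-like growth factor. NRK-52E libraries held 69.15, 62.89, 57.37 and 61.97 FPM at pH 7.4 and 56.51, 58.84, 58.94 and 75.98 FPM at pH 6.0. The groups overlapped, replicate 8 was well above the other acidic libraries, and the change was -0.023 (95% interval -0.28 to 0.23). In NRK-49F it stood at 11.09, 10.31, 12.64 and 10.48 FPM at pH 7.4 and at 17.62, 14.59, 6.66 and 6.29 FPM at pH 6.0. The acidic libraries numbered 20 were above all controls and those numbered 21 below all controls, the opposite of the order of Pdgfra. The pooled change was -0.00046 (95% interval -0.65 to 0.65), with 0.60 within number 20 (edgeR adjusted p = 0.00806, not passed in both tools) and -0.85 within number 21 (adjusted p = 0.0327). Those effects differed by -1.46 ± 0.27, a difference that passed in DESeq2 (adjusted p = 0.00772) and did not in edgeR (adjusted p = 0.207).

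Hbegf was 5.99-fold higher in NRK-52E than in NRK-49F at pH 7.4 (log2 2.58 ± 0.10) and 5.54-fold higher at pH 6.0 (2.47 ± 0.31). Ereg, which encodes epiregulin, was low. Values in NRK-52E were 2.16, 2.99, 2.65 and 2.523 FPM at pH 7.4 and 2.08, 1.93, 2.17 and 1.93 FPM at pH 6.0. These groups overlapped slightly, and the change of -0.37 (95% interval -0.82 to 0.077) missed the threshold (edgeR adjusted p = 0.125). NRK-49F had at most 10 counts of Ereg in a library, with a pooled level of 0.0900 FPM (95% exact Poisson interval 0.0362 to 0.185) at pH 7.4 and 0.129 FPM (0.0689 to 0.221) at pH 6.0.

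Egfr, the receptor of all 3 EGF ligands among the members, was mainly an NRK-52E transcript. In that line it stood at 42.40, 53.51, 65.91 and 56.41 FPM at pH 7.4 and at 47.28, 66.93, 65.78 and 33.90 FPM at pH 6.0. The groups overlapped widely and the change was -0.056 (95% interval -0.51 to 0.40). NRK-49F had 3.37, 3.08, 2.30 and 1.07 FPM at pH 7.4 and 4.07, 3.38, 1.43 and 2.78 FPM at pH 6.0, with a change of 0.23 (95% interval -0.61 to 1.08). Egfr was 24.1-fold higher in NRK-52E at pH 7.4 (log2 4.59 ± 0.27) and 18.4-fold higher at pH 6.0 (4.20 ± 0.32).

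**Figure D1:**
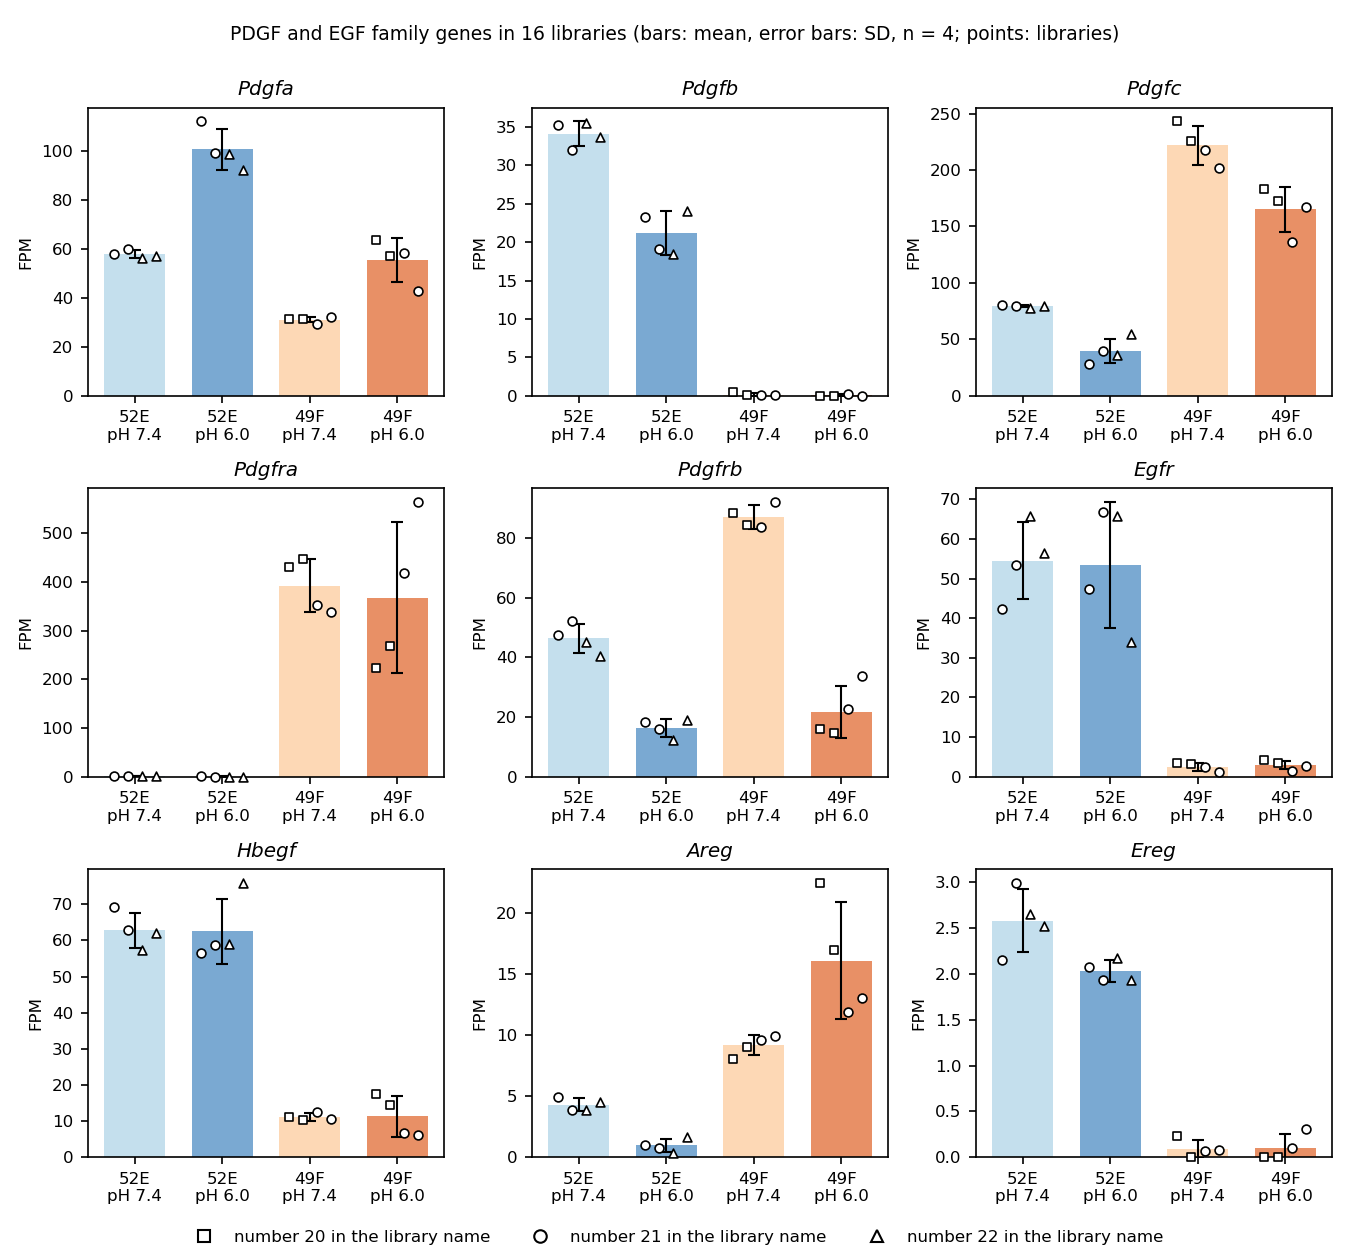
Level of 9 members in FPM (vertical axes, from 0) in the 4 groups of cell line and medium pH; bars are means, error bars SD of 4 libraries, and points are libraries with a shape for the second number in their names. Mean Pdgfrb was 46.4 FPM against 16.3 FPM at pH 6.0 in NRK-52E, with 87.2 FPM against 21.8 FPM in NRK-49F; mean Areg was 4.29 against 0.966 FPM in the former, 9.15 against 16.1 FPM in the latter, and the acidic NRK-49F libraries of Pdgfra and Hbegf lie apart by number.

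Between the lines the members differed mainly in level. Of the 10, Pdgfb, Pdgfra and Ereg were near 0 in 1 line, Pdgfd was near 0 in both, and the others were counted in both lines. At pH 7.4, 5 members were higher in NRK-52E (Pdgfa, Pdgfb, Egfr, Hbegf and Ereg) and 4 in NRK-49F (Pdgfc, Pdgfra, Pdgfrb and Areg) of 9 tested, against 33.3% and 33.3% of 14026 genes. At pH 6.0 the counts were 5 and 3 of 9, without Pdgfrb, against 28.6% and 31.3% of 13796 genes. Pdgfb, Pdgfra and Ereg could pass the minimum count only through the line in which they were high, so these counts are a description. Their fitted differences rest on a few counts in the lower line and moved with single libraries. For Pdgfra the log2 difference was -10.31 at pH 7.4 (-10.57 to -10.10 with each library left out) and -12.77 at pH 6.0 (-14.17 to -12.34, the former without NRK-52E replicate 3). For Pdgfb it was 7.70 at pH 7.4 (7.38 to 8.66, the latter without NRK-49F replicate 9) and 7.81 at pH 6.0 (7.29 to 10.02, the latter without NRK-49F replicate 15). Ereg differed by 4.83 at pH 7.4 (4.43 to 5.62, the latter without NRK-49F replicate 9) and 3.97 at pH 6.0 (3.61 to 5.37, the latter without NRK-49F replicate 16). Libraries numbered 21 alone gave -10.66 and -12.55 for Pdgfra, 8.79 and 7.30 for Pdgfb, and 5.09 and 3.23 for Ereg.

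Whether the pH effects of the lines differ was tested with all 16 libraries. Areg was the 1 member of 9 tested whose difference was called, against 36.9% of 14679 genes. Pdgfra missed the threshold in edgeR (difference -2.38, adjusted p = 0.0657) and passed in DESeq2 (adjusted p = 0.00831), on few counts in NRK-52E. Pdgfb, Pdgfra and Ereg could pass the minimum count here too only through the line in which they were high. Their pH effect in the other line rests on a few counts, so the 1 of 9 is a description. With library totals alone as scaling, the median log2 fold change of all genes moved from 0.0014 to -0.21 in NRK-52E, from -0.0029 to 0.040 in NRK-49F, from 0.029 to 0.34 between the lines at pH 7.4, from -0.027 to 0.12 at pH 6.0 and from -0.014 to -0.25 for the difference of the pH effects. No called member turned direction with it.

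Other EGF family ligands, from a list of 8 of which 7 were in the table, were followed in the same way. In NRK-52E, 2 of 5 tested were higher and 2 lower at pH 6.0 (3 lower with library totals, with Epgn), with a median log2 change of -1.25, beside 28.2% and 28.5% of all genes tested. In NRK-49F, 2 of 4 were higher and 1 lower, with a median of 0.80, beside 18.4% and 19.4%. Tgfa, which encodes transforming growth factor alpha, rose in NRK-52E, 5.51 ± 0.80 FPM becoming 11.7 ± 1.30 FPM (SD, n = 4; log2 change 1.07 ± 0.17), and in NRK-49F, 2.97 ± 0.62 FPM becoming 13.53 ± 2.72 FPM (2.18 ± 0.22). Nrg1, which encodes neuregulin for the receptors ErbB3 and ErbB4, rose too, by 2.29 ± 0.28 (NRK-52E) and 1.62 ± 0.23 (NRK-49F). Btc, which encodes betacellulin, fell in NRK-52E, 45.7 ± 3.25 FPM becoming 8.22 ± 3.58 FPM (-2.49 ± 0.26), and in NRK-49F, 12.7 ± 4.22 FPM becoming 0.444 ± 0.28 FPM (-4.81 ± 0.41). Egf fell in NRK-52E from 1.63 to 0.351 FPM (-2.19 ± 0.40; -2.02 and -2.35 within numbers 21 and 22, edgeR adjusted p = 0.0197 and 0.0225) and was at 1.21 and 1.18 FPM in NRK-49F (-0.021 ± 0.36).

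Epgn, which encodes epigen, was at 1.28 and 0.538 FPM in NRK-52E and its change of -1.25 ± 0.40 missed the threshold (edgeR adjusted p = 0.0156). Epgn in NRK-49F and Nrg2 and Nrg4 in both lines were too low to test there. The pH effects of the lines differed for Tgfa (-1.13 ± 0.27), Egf (-2.18 ± 0.56) and Btc (2.29 ± 0.50), with edgeR adjusted p-values of 0.00197, 0.00340 and 0.000903. Tgfa, Btc and Nrg1 were called within each number in NRK-49F. In NRK-52E all 3 were called within number 21, and within number 22 they were at 1.05, -2.31 and 1.94 with adjusted p-values of 0.0270, 0.0103 and 0.0109.

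Of the other ErbB receptors, Erbb2, the partner that has no ligand of its own, fell in NRK-52E and less firmly in NRK-49F. NRK-52E had 138 ± 9.37 FPM at pH 7.4 against 48.8 ± 11.47 FPM at pH 6.0 (-1.52 ± 0.15), and NRK-49F had 66.4 ± 9.45 FPM against 47.9 ± 8.17 FPM (-0.48 ± 0.14, edgeR adjusted p = 0.00984, groups overlapping). The NRK-49F call was lost with library totals or DESeq2 size factors as scaling, within number 20 (-0.54, edgeR adjusted p = 0.0110) and within number 21 (-0.41, edgeR adjusted p = 0.138). Erbb3, a neuregulin receptor, rose in NRK-52E, with 29.1 ± 0.69 FPM becoming 57.3 ± 11.4 FPM (0.95 ± 0.14; 1.12 within number 21 and 0.75 within number 22, the latter with an edgeR adjusted p of 0.0334), and was at 1.11 and 0.740 FPM in NRK-49F, where it missed the threshold. The pH effects of the lines differed by -1.05 ± 0.22 for Erbb2 and 1.50 ± 0.29 for Erbb3. Erbb4 had no count in any library, which allows at most 0.0386 FPM in a group by the same limit of 3 counts.

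**Figure D2:**
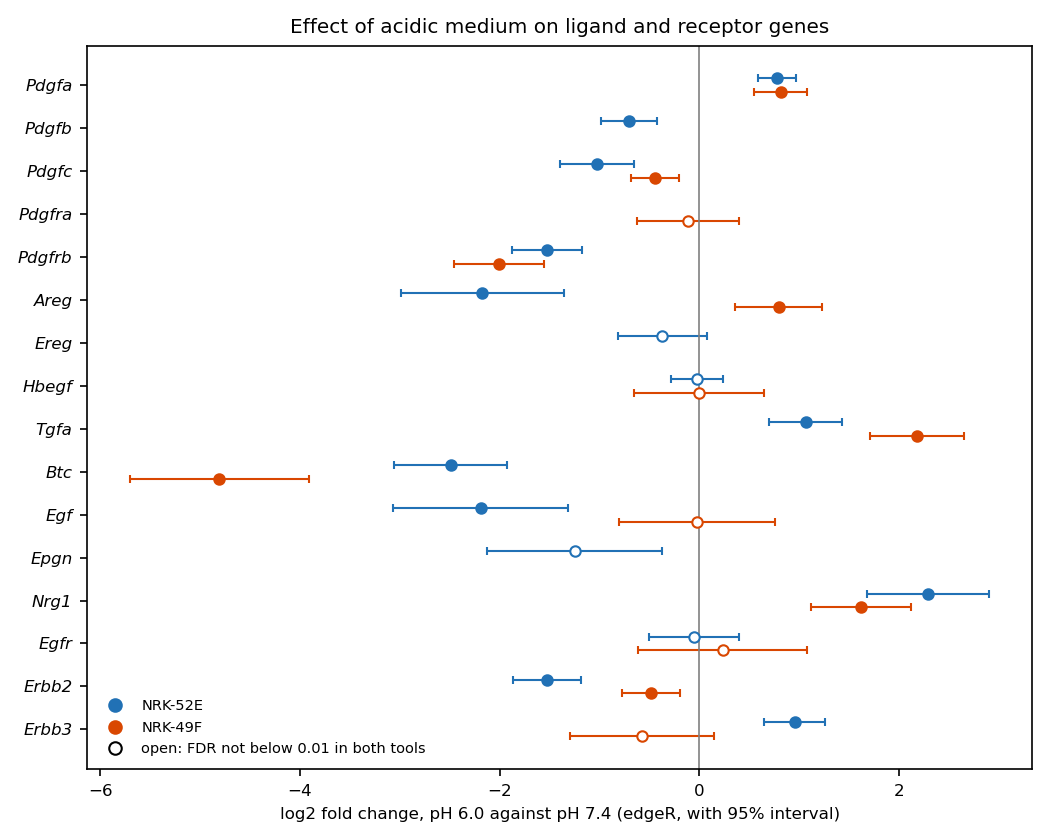
Log2 fold change at pH 6.0 against pH 7.4 (horizontal axis) with its 95% interval in NRK-52E (blue) and NRK-49F (orange) for tested ligands and receptors, filled where the FDR was below 0.01 in both tools. Areg lies at -2.17 in NRK-52E and 0.80 in NRK-49F, Pdgfrb at -1.53 and -2.01, and Btc at -2.49 and -4.81, while the intervals of Egfr and Hbegf include 0 in both lines.

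Proteases that release or activate these ligands, and their regulators, were tested from a list of 12. In NRK-52E, 3 of 10 were higher and 7 lower, with a median of -0.76, beside 28.2% and 28.5% of all genes tested. In NRK-49F, 1 of 11 was higher and 5 were lower (4 with library totals, without Plaur), with a median of -0.32, beside 18.4% and 19.4%. Adam9 fell by 1.46 ± 0.13 (NRK-52E) and 0.74 ± 0.12 (NRK-49F), and Plat, which encodes tissue plasminogen activator, fell by 1.59 ± 0.11 and 1.12 ± 0.12. Adam10, a sheddase of EGF and betacellulin, fell by 1.25 ± 0.13 in NRK-52E, and was at 0.011 ± 0.13 in NRK-49F. Adam15 fell by 1.06 ± 0.11 (NRK-52E) and 0.97 ± 0.09 (NRK-49F). Rhbdf2, a partner of ADAM17, rose by 0.72 ± 0.12 in NRK-52E, as did Plaur by 0.69 ± 0.12. Rhbdf1 rose there by 0.31 ± 0.09 and was not called with library totals or DESeq2 size factors as scaling. In NRK-49F, Plaur fell by 0.32 ± 0.08 and Rhbdf1 fell by 0.55 ± 0.10, and the pH effects of the lines differed by 0.99 ± 0.15 for Plaur and 0.85 ± 0.14 for Rhbdf1, both called. Furin, a proprotein convertase, was the 1 gene of the list that rose in NRK-49F, by 0.81 ± 0.14, and it fell by 0.70 ± 0.09 in NRK-52E (difference -1.52 ± 0.18, called).

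Adaptors and proximal effectors of receptor tyrosine kinases, all 21 of them tested, included 9 higher and 3 lower in NRK-52E (6 and 4 with library totals), with a median of 0.32, beside 28.2% and 28.5% of all genes tested. In NRK-49F, 7 were higher and 4 lower (7 and 3), with a median of 0.11, beside 18.4% and 19.4%. Pik3ca rose in both, by 1.33 ± 0.10 and 1.07 ± 0.09, and Mapk3 fell in both, by 1.04 ± 0.16 and 0.84 ± 0.08. Shc1 fell by 1.15 ± 0.09 (NRK-52E) and 0.43 ± 0.10 (NRK-49F). Hras rose by 1.15 ± 0.11 in NRK-52E and was at -0.087 ± 0.18 in NRK-49F, while Sos1 rose by 0.94 ± 0.14 and 0.62 ± 0.12. Map2k2 fell by 1.20 ± 0.16 (NRK-52E) and 0.39 ± 0.10 (NRK-49F, not called with library totals), and Nck1 fell by 1.11 ± 0.12 in NRK-49F, with 0.26 ± 0.11 in NRK-52E, which missed the threshold.

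Inhibitors and down-regulators of the receptors formed a list of 13 with 12 tested in each line. In NRK-52E, 5 were higher and 3 lower, with a median of 0.35, but 1 and 3 with library totals as scaling, where Lrig1, Lrig3, Ptpn1 and Socs4 were no longer called; of all genes tested, 28.2% and 28.5% were called. Errfi1, which encodes an inhibitor of the EGF receptor, rose by 0.91 ± 0.13 in NRK-52E. Lrig1, a transmembrane inhibitor of ErbB receptors, was at 1.04 ± 0.29 in NRK-52E and fell by 1.05 ± 0.22 in NRK-49F. In NRK-49F, 3 were higher and 2 lower with either scaling, with a median of 0.014, beside 18.4% and 19.4% of all genes, and the higher were Socs4 at 1.10 ± 0.23, Ptpn1 at 0.70 ± 0.12 and Socs5 at 0.38 ± 0.08. Socs5 fell by 0.54 ± 0.11 in NRK-52E, and the difference of -0.92 ± 0.12 was called. Ptprj, a receptor phosphatase, fell by 0.77 ± 0.18 (NRK-52E) and 0.62 ± 0.13 (NRK-49F), and Rnf41 fell by 1.04 ± 0.10 in NRK-52E.

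Genes induced by the kinase ERK, which acts downstream of both receptor families, were followed as a list of 18, all tested. In NRK-52E, 5 were higher and 3 lower (2 and 5 with library totals, where Fosl1, Egr1 and Dusp5 were no longer called), with a median of 0.036, beside 28.2% and 28.5% of all genes tested. In NRK-49F, 7 were higher and 4 lower with either scaling, with a median of 0.55, beside 18.4% and 19.4%. Dusp5 rose by 2.66 ± 0.12, Fosl1 by 2.08 ± 0.12 and Myc by 1.93 ± 0.16 in NRK-49F, whereas Spry1 fell by 1.69 ± 0.17, Dusp6 fell by 0.92 ± 0.14, Spry2 fell by 0.61 ± 0.10 and Spry4 fell by 0.51 ± 0.12. In NRK-52E, Etv5 rose by 1.68 ± 0.33 and Dusp4 by 1.60 ± 0.34, and Egr2 fell by 1.19 ± 0.28, Spry1 by 0.68 ± 0.11 and Myc by 0.60 ± 0.15.

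As a description, likeness over the 16 libraries was searched among genes with a mean of at least 10 FPM. This left 8948 or 8949 candidates per member. Among these, the genes whose log2 levels most resembled those of Pdgfrb were Stk38 and Scrn1 (Pearson r 0.981 and 0.9748). Those nearest to Areg were Gpatch4 and Sdc2 (0.9747 and 0.9746). For Pdgfra they were Htr2a and Trim2 (0.999 and 0.999), and for Pdgfb Emx2 and Pdpn (0.999 and 0.999). The points share 2 lines and 2 media, so such values can follow the line, the medium or both. Nothing about shared control follows from them.

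Promoter sequences from RefSeq (build GRCr8, not the build of the counts) matched 8 of the 10 members by symbol, with 250 bases before and 50 after the gene's start; Pdgfrb and Ereg were not among them. Areg is shown because its pH effects differed between the lines, and Pdgfra because the lines differed most in it. They were searched on both strands for the AP-1 motif TGANTCA, the cyclic AMP response element TGACGTCA, the C/EBP-ATF composite TGATGNAAN, the antioxidant response element core TGACNNNGC and, by its name, the CArG box. Of 33365 promoters, 7.34% held the AP-1 motif, 1.83% the cyclic AMP response element, 3.97% the composite, 12.1% the antioxidant core and 1.63% the CArG box. Capitals mark matches. Areg lies on the minus strand at chr14:17265592-17265891, with a cyclic AMP response element from -91 to -84 and an antioxidant core read on the opposite strand from 2 to 10, counted from the start. Pdgfra lies on the minus strand at chr14:33408467-33408766, with an AP-1 match from -35 to -29.
Areg: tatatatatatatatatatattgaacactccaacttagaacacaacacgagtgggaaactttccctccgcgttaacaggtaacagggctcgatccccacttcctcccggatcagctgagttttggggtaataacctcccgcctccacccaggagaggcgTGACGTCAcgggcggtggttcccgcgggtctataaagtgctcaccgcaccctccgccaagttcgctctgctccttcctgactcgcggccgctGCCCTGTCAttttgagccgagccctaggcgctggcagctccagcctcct
Pdgfra: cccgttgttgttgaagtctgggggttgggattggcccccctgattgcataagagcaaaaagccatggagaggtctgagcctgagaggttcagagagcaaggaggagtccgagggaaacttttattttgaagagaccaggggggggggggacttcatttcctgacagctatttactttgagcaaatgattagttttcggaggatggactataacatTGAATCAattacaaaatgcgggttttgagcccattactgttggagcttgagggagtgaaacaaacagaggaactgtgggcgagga
Of the other matched members, Pdgfd held an antioxidant core and Pdgfa, Pdgfb, Pdgfc, Egfr and Hbegf held none of these letters in the window. A match is a description of letters only, and binding was not measured. In the same build Pdgfa overlaps a long noncoding RNA gene, Pdgfc a small nuclear RNA gene and Pdgfd the gene Ddi1. These are overlaps of whole gene spans, while the authors counted reads on exons and in another build. Their counting options set no strand. Whether reads of such neighbours entered the counts of the members was not tested.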

How the data were processed

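Polyadenylated RNA of 16 libraries was sequenced in pairs of reads. The authors deposited raw counts per gene, made with featureCounts on exons of rn6 genes with multi-mapping reads counted; their methods name tophat2 as aligner, while the submitters' processing notes name HISAT2 2.1.0. From these counts, edgeR 4.0.16 (TMM, default filter on low counts, quasi-likelihood test) and DESeq2 1.42.0 (Wald test) in R 4.3.3 were fitted to all genes, for each medium comparison within a line, each line comparison within a medium and the difference of the pH effects. P-values were adjusted by Benjamini-Hochberg over all genes tested, and a gene was called at FDR below 0.01 in both tools with the same sign. Fold changes, SE and 95% intervals are edgeR's. Exact permutation tests used log2(FPM + 1). The code was checked on simulated counts. The 13 lists, that of the members included, were chosen with earlier results of these data known. All 10 members were named; from each pathway list the 3 largest called rises and falls per line with at least 1 FPM could be named, as could every EGF ligand and ErbB receptor. Spry4, markers and values in the other line of genes so named were added after they were seen. Some genes that this rule allows are not reported here by name. Marker lists covered epithelial, proximal tubule, fibroblast, pericyte, endothelial and immune cells. Alternatives were scaling, filter, tool, threshold, number in the library name and libraries left out.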

Additional observations from a re-analysis of the deposited data

Results flagged for a closer look

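Within groups of 4 libraries, a library was set apart when its gap to the next exceeded Dixon's 95% critical value as a share of the range. Of 38 groups of member values, 4 held such a library; chance gives about 1 in 20, and Pdgfd, with 1 count among libraries at 0, is set apart by construction. Replicate 8 of NRK-52E at pH 6.0 had Hbegf at 75.98 FPM, against 56.51 to 58.94 FPM in the other 3. The other 3 cases rest on a few counts: Pdgfb at 0.457 FPM in replicate 9 of NRK-49F at pH 7.4 and at 0.260 FPM in replicate 15 at pH 6.0, each from 8 counts, and Pdgfd at 0.0313 FPM in replicate 16, from 1 count.

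The pH effects of the lines differed by the test over 16 libraries for Areg (-2.99), Egf (-2.18), Tgfa (-1.13), Btc (2.29), Erbb2 (-1.05) and Erbb3 (1.50), each as NRK-52E minus NRK-49F on the log2 scale. They were 1 of 9 members, 3 of 5 other EGF family ligands and 2 of 2 other ErbB receptors tested. Of all 14679 genes tested, 36.9% were called for this difference, so these counts set the families apart from no other genes. Areg and Erbb3 were called with number 21 libraries alone too, at -2.66 and 1.76. For Egf, Tgfa, Btc and Erbb2 the difference within number 21 was -2.51, -0.93, 1.60 and -1.19, with edgeR adjusted p-values of 0.0262, 0.115, 0.0558 and 0.0213.

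Within NRK-49F, every acidic library lay on opposite sides of its controls in the 2 numbers for Pdgfra and Hbegf. The pH effect in number 21 minus that in number 20 was 1.31 for Pdgfra and -1.46 for Hbegf on the log2 scale, called by DESeq2 and not by edgeR, in an alternative chosen after seeing the data. What the number stands for is not given in the sources used here, and its part in these values was not tested.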

How the results depend on the processing

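Counts of members called between the lines were the same under every alternative run. In NRK-52E, where 5 were called, the fit of all 16 libraries and number 21 alone called 4 (without Pdgfb), number 22 alone called 1 (Pdgfrb, with 2 against 2 libraries), and the others run, leaving out each library included, called 5. In NRK-49F, where 4 were called, library totals called 3 (without Pdgfc), the fit of all 16 libraries 2 (Pdgfa and Pdgfrb), number 20 alone 5 (with Pdgfra) and number 21 alone 1 (Pdgfrb), and leaving out each library gave 2 to 4, with 2 without replicate 9 or 10. For the difference of the pH effects, where 1 was called, library totals gave 2 (with Pdgfc), DESeq2 alone gave 2 (with Pdgfra), an FDR below 0.05 gave 2 (with Pdgfc), and leaving out each library gave 1 to 2, with 2 without replicate 8 (Pdgfc) or 16 (Pdgfrb). Among all genes, number 22 alone called 2820 in NRK-52E against 7793, and number 21 alone called 1980 in NRK-49F against 5039, 5679 between the lines at pH 7.4 against 9338 and 2522 for the difference of the pH effects against 5412. Number 20 alone, also with 2 against 2 libraries, called 4680 in NRK-49F, and number 21 alone called 5244 in NRK-52E. The fit of all 16 libraries called more of all genes, 8316 in NRK-52E and 5162 in NRK-49F, where it called fewer members. Library totals called 5008 of all genes in NRK-49F. For the difference of the pH effects, library totals called 5411, DESeq2 alone 6260 and an FDR below 0.05 7369.

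Changes of direction occurred in values that missed the threshold. In NRK-52E, Egfr was at 0.21 within number 21 and from -0.19 to 0.11 with each library left out, and Hbegf at 0.16 within number 22 and from -0.14 to 0.018. In NRK-49F, Pdgfra was at 0.49 within number 21 and from -0.39 to 0.070 with each library left out, and Egfr ranged from -0.037 to 0.48. Hbegf in NRK-49F was at 0.0052 with DESeq2 size factors, 0.050 with library totals, 0.011 without a filter, 0.015 with a minimum of 1 CPM, 0.018 in DESeq2 and 0.60 within number 20, and from -0.31 to 0.21 with each library left out. For the difference of the pH effects, Pdgfa was at 0.11 within number 21 and from -0.22 to 0.023; Pdgfb at -0.057 with library totals, -1.43 within number 21 and from -0.80 to 2.40; Hbegf at 0.085 with the number as a covariate, 0.62 within number 21 and from -0.24 to 0.29; and Ereg ranged from -1.60 to 0.62. The cause was not tested. Of the fold changes under alternatives, 770 kept direction and side of the threshold, 37 turned, 21 lost and 6 gained a call. Single libraries could not be paired because no replicate number is shared between groups. The fit with the second number as a covariate called 5 members in NRK-52E and 4 in NRK-49F. Among all genes it called 7551 and 5211. The labels do not say which libraries of the lines shared a co-culture, and the tests across lines treated all libraries as independent.

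Depth limits Pdgfb, Pdgfd and Ereg in NRK-49F and Pdgfd and Pdgfra in NRK-52E. With 4 libraries a group, exact permutation cannot give a p under 0.0286.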

Other observations

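The pH effects of the numbers were compared over all genes, as an alternative chosen after seeing the data. In NRK-52E, 0 of 14378 genes differed between numbers 21 and 22 in both edgeR and DESeq2 (0 in each tool alone, 417 at an unadjusted p under 0.05 in edgeR). In NRK-49F, 1 of 13859 genes differed between numbers 20 and 21 in both tools, Ccn1 (1 in edgeR, 34 in DESeq2, 1414 at an unadjusted p under 0.05 in edgeR).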
